A study of Mus musculus with 24 samples.

Results

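The genes described here are the Wnt ligands, their receptors, their secreted antagonists and the nuclear effectors of the pathway, 47 of the 37310 genes measured. They were chosen by symbol alone, with no measured value: the protein-coding genes of the Wnt ligand, Frizzled (Fzd), Sfrp and Dkk families, together with Frzb, Wif1, Lrp5, Lrp6, Axin2, Tcf7, Tcf7l1, Tcf7l2, Lef1 and Ctnnb1. They comprised 19 ligands, 12 receptors and co-receptors, 10 secreted antagonists and 6 nuclear effectors or feedback targets. RNA came from primary stromal vascular cells, the mixed fraction of fat that holds adipocyte precursors, of the white fat pad of the groin (inguinal, WAT) and the brown pad between the shoulder blades (interscapular, BAT) of C57BL/6 mice aged 6 weeks. At near confluence the cells received insulin, dexamethasone and 3-isobutyl-methylxanthine for 4 days, then insulin and the thyroid hormone T3 for another 4 days. Throughout, the medium held EGCG, the catechin epigallocatechin gallate of green tea, or DMSO in the controls. The 8 groups were WAT day 4 control, WAT day 4 EGCG, WAT day 8 control, WAT day 8 EGCG, BAT day 4 control, BAT day 4 EGCG, BAT day 8 control and BAT day 8 EGCG, with 3 libraries each. No genotype, transgene or dose of EGCG was named in the labels.

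Wnt ligands are secreted, lipid-modified glycoproteins that bind Frizzled receptors and the co-receptors Lrp5 and Lrp6. In the canonical branch, binding stabilises beta-catenin (encoded by Ctnnb1), which enters the nucleus and acts with transcription factors of the TCF and LEF family. Axin2 is one of its classical target genes and feeds back on beta-catenin degradation. Secreted frizzled-related proteins, Frzb and Wif1 bind the ligands outside the cell, and Dkk1 and its relatives act on the co-receptors. In adipose tissue, canonical Wnt signalling, with Wnt10b as its best known ligand, is known for holding precursors in an undifferentiated state.

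Values are FPKM, reads on a gene scaled to the length of its longest transcript and to the reads on all genes of the library. Replicates 1 and 2 of all groups stand in 1 table (39452696 to 52893848 reads on genes per library) and were tested. Replicate 3 stands in a table scaled separately (16392420 to 41675643 reads) and gives only a direction. The labels do not say whether replicates were separate isolations or cultures, so that p-values measure the spread between these libraries, which may be technical. Replicates 1 and 2 of WAT day 8 control were the furthest apart. Their median squared difference was 4.06 in units of the variance of read sampling, against 1.62 to 2.45 in the other groups. The fit takes 1 spread per gene over all groups, so that SE and p-values of contrasts with WAT day 8 control may be too small. In replicate 3 of WAT day 8 EGCG, 18 genes held 61.4% of the reads, and all its values are therefore given here after multiplication by 2.59, a choice made after the data were seen. In bulk RNA, fewer cells of a type and less RNA per cell cannot be told apart. The labels call all the cells preadipocytes. All 10 adipocyte markers of a list (Adipoq, Pparg, Fabp4 and others) nevertheless had reads in every group. Their summed FPKM was 6183 to 6962 in WAT day 8 control and 11165 to 11243 in BAT day 8 control. Lep, 1 of the 10, was near 0 in WAT cells with EGCG, at 0.00329 ± 0.00465 FPKM on day 4 and 0.00680 ± 0.00127 on day 8 (SD, n = 2).

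Of the 47 genes, 28 reached 1 FPKM in at least 2 of the 16 tested libraries and entered the test. The other 19 were Wnt1, Wnt2b, Wnt3, Wnt3a, Wnt5b, Wnt6, Wnt7a, Wnt7b, Wnt8a, Wnt8b, Wnt9b, Wnt10a, Fzd9, Fzd10, Dkk1, Dkk4, Wif1, Tcf7 and Lef1. Among these, Wnt3a (2 reads over the 24 libraries) and Wnt8a (1 read) were below 3 reads, the floor used here. Wnt2b, Wnt5b, Wnt7b and Tcf7 came nearest to the threshold, with highest group means of 0.925, 1.08, 1.10 and 0.945 FPKM. Of the 28 tested genes, 17 reached 1 FPKM in a library of each of the 8 groups. Among the 16 tested libraries, Wnt2, Wnt10b and Fzd6 reached 1 FPKM in EGCG groups alone, Sfrp5 in the WAT day 4 groups alone and Dkk2 in the WAT day 8 groups alone. These genes could pass only by being high there, and counts over the tested genes are therefore a description.

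The ligands were the least abundant of the 4 classes in every group. Their summed FPKM was between 13.4 ± 0.351 (SD, n = 2) in WAT day 4 control and 36.4 ± 0.190 in WAT day 8 EGCG. Receptors and co-receptors summed to 156 ± 1.39 in BAT day 8 EGCG at the lowest and to 277 ± 10.6 in WAT day 4 control at the highest. The secreted antagonists were the most abundant class in every group but 2, WAT day 4 EGCG and BAT day 8 EGCG, with sums between 190 ± 2.76 in BAT day 8 EGCG and 458 ± 20.3 in BAT day 4 control. Sfrp1 and Sfrp2 were the leading pair of this class in 7 of 8 groups. Ctnnb1 held 80.6% to 90.3% of the nuclear class.

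The first question was what EGCG did to these genes during differentiation. In WAT cells on day 4, 6 of the 28 tested genes were higher with EGCG and 10 lower, where 34.4% and 19.3% of all 14095 tested genes were called higher and lower (limma, adjusted p under 0.05). In WAT cells on day 8 the counts were 12 and 7, against 44.7% and 18.9% of all genes. In BAT cells on day 4 they were 9 and 6, against 27.9% and 20.6%. In BAT cells on day 8 they were 15 and 7, against 46.5% and 26.1%. EGCG moved a large share of all genes, and the share of the Wnt genes called in either direction (16, 19, 15 and 22 of 28) was of the order of the background. The split of all genes moved with the scaling, and with median-ratio scaling it was 3504 higher and 3945 lower in WAT on day 4 and 4036 and 3944 in WAT on day 8. The split of the Wnt genes with median-ratio scaling was 6 higher and 11 lower in WAT on day 4, and 9 and 9 in WAT on day 8. That scaling moved the median change of all genes from 0.17 to 0.01 or less on the log2 scale on day 8. Replicate 3, rescaled in WAT day 8 EGCG, changed in the same direction for each called gene of the 4 contrasts. It did so for 23, 27, 25 and 24 of all 28 tested genes, called or not, in the order WAT day 4, WAT day 8, BAT day 4 and BAT day 8. The 3 libraries of each group stood apart from those of the other for 16, 14, 15 and 21 of the called genes.

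By role, 3, 4, 4 and 7 of the 7 tested ligands were called higher with EGCG, in the order WAT day 4, WAT day 8, BAT day 4 and BAT day 8, and 0 lower. The 7 were Wnt2, Wnt4, Wnt5a, Wnt9a, Wnt10b, Wnt11 and Wnt16, of which Wnt2 and Wnt10b had entered the test through EGCG groups. The call of Wnt4 in BAT on day 8 was lost without BAT day 8 EGCG replicate 2 (log2 change 0.39, adjusted p = 0.0767). Of the 10 receptors, 2, 5, 3 and 5 were higher and 3, 3, 2 and 3 lower. Fzd6, among them, had entered the test through EGCG groups. Of the 7 antagonists, 0, 2, 2 and 2 were higher and 4, 1, 1 and 2 lower. Wnt5a was higher in 4 of 4 contrasts, while Fzd4, Tcf7l1 and Axin2 were lower in 4 of 4. Fzd2, Fzd7, Lrp5 and Dkk3 were higher in some and lower in others, and Sfrp5 was called in none. All 10 adipocyte markers were lower with EGCG in each of the 4 contrasts, their summed FPKM in BAT on day 8 being 11165 to 11243 in controls and 474 to 482 with EGCG. Of 6 endothelial markers, 5, 4, 6 and 6 were higher, in the order WAT day 4, WAT day 8, BAT day 4 and BAT day 8. The endothelial sum in BAT on day 8 was 16.9 to 17.4 in controls and 34.5 to 35.5 with EGCG. Of 4 pericyte and smooth muscle markers, 1, 1, 3 and 1 were higher and 2, 1, 0 and 2 lower, in the same order. Their sum was mostly Acta2, whose mean FPKM in BAT on day 8 was 229 in controls and 798 with EGCG, while in WAT on day 4 it was 88.9 and 38.2. Of 5 tested macrophage markers, 4, 0, 3 and 0 were higher and 0, 5, 0 and 4 lower. Of 7 tested precursor and fibroblast markers, 2, 1, 2 and 1 were higher and 2, 5, 2 and 4 lower. The part of these shifts in the Wnt gene changes was not tested.

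**Figure D1:**
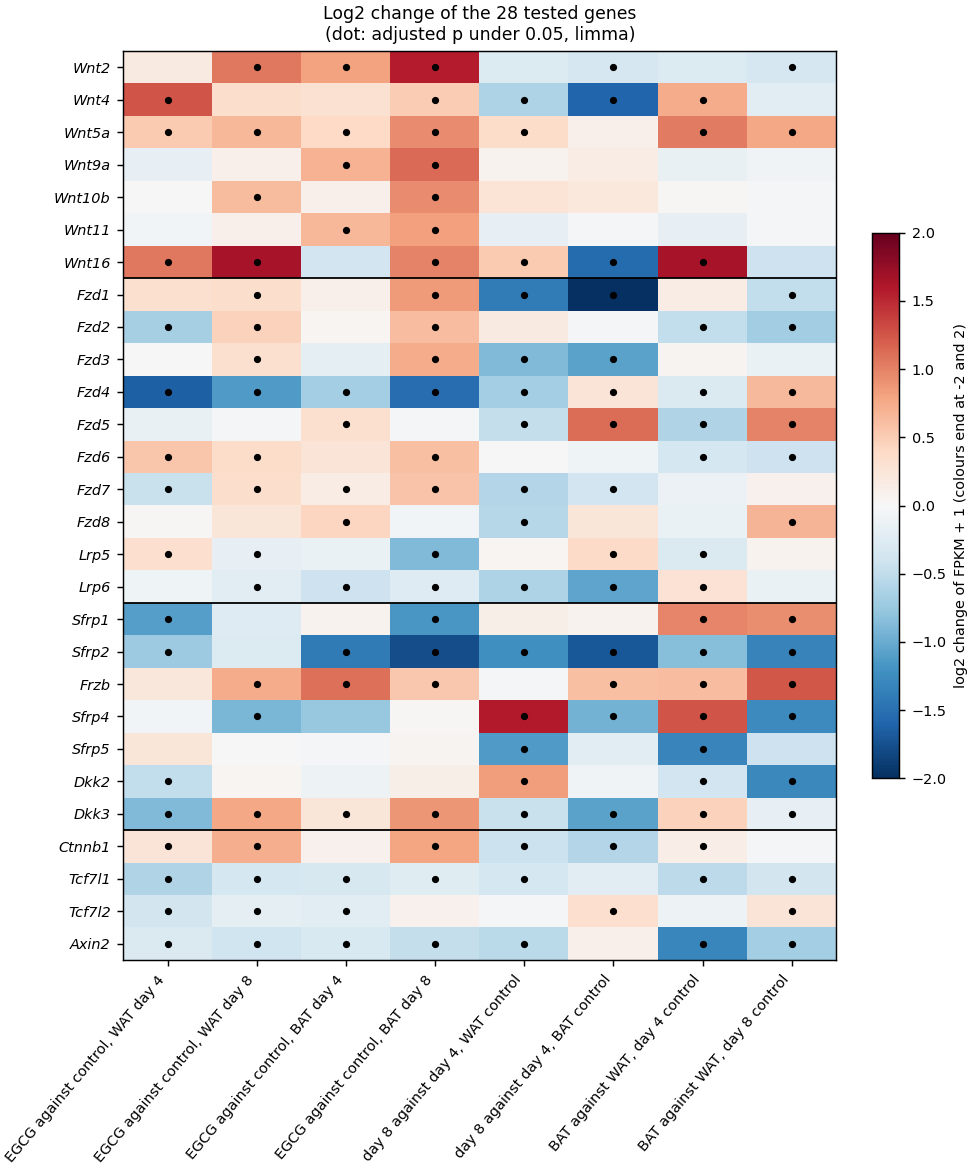
Heat map of the log2 change of FPKM + 1 for the 28 tested genes (vertical axis, in blocks of ligands, receptors, antagonists and nuclear genes) in the 8 pairwise contrasts (horizontal axis); a dot marks an adjusted p under 0.05 (limma, replicates 1 and 2). The ligand block holds no dot on a negative change in the first 4 columns, and Fzd4, Tcf7l1 and Axin2 are lower in all 4 of them.

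Wnt5a (chr14:29317936-29340633, NCBIM37, the annotation of build mm9), a ligand best known for beta-catenin-independent signalling, was called higher with EGCG in both depots on both days. In WAT day 4 control its FPKM in replicates 1, 2 and 3 was 2.11, 2.15 and 1.90, against 3.90, 3.17 and 3.75 with EGCG. The day 8 values of WAT were 3.59, 2.53 and 2.40 in controls and 5.52, 5.29 and 4.99 with EGCG. All EGCG libraries stood above all control libraries at both times. BAT values were 5.58, 5.33 and 4.63 in day 4 controls and 7.84, 7.22 and 5.69 with EGCG, and 5.88, 5.94 and 5.47 in day 8 controls and 12.1, 12.6 and 10.7 with EGCG. The groups did not overlap here either. The log2 change was 0.53 ± 0.11 (SE, adjusted p = 0.00150) in WAT day 4 and 0.67 ± 0.11 (SE, adjusted p = 0.000191) in WAT day 8. It was 0.40 ± 0.11 (SE, adjusted p = 0.00906) in BAT day 4 and 0.95 ± 0.11 (SE, adjusted p = 7.12e-06) in BAT day 8, the last a 2.09-fold rise. The BAT day 4 call was lost without BAT day 4 control replicate 2 or BAT day 4 EGCG replicate 1 (log2 changes 0.35 to 0.37, adjusted p = 0.0538 to 0.0668). Controls also differed by depot, with BAT above WAT by 1.04 ± 0.11 (SE, adjusted p = 1.35e-05) on day 4 and 0.78 ± 0.11 (SE, adjusted p = 8.97e-05) on day 8. Exons of Wnt5a overlap Gm2670 on the other strand, and since the strand setting of the counting is not given, reads of the pair cannot be told apart.

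Wnt16 (chr6:22238227-22250409) had the highest group mean of any ligand, 22.0 ± 1.05 FPKM (SD, n = 2) in WAT day 8 EGCG. In WAT its values were 3.73, 4.45 and 3.78 in day 4 controls and 10.0, 9.19 and 10.3 with EGCG. On day 8 they were 8.33, 4.73 and 5.10 in controls and 21.3, 22.8 and 21.1 with EGCG. The EGCG libraries of WAT were all higher than the controls of the same day. BAT libraries had 15.9, 14.0 and 11.8 in day 4 controls, 10.3, 12.2 and 10.8 with EGCG on day 4, 4.40, 4.56 and 5.21 in day 8 controls and 10.6, 9.32 and 8.75 with EGCG on day 8. In BAT cells the groups overlapped on day 4 and were apart on day 8. The log2 change with EGCG was 1.06 ± 0.18 (SE, adjusted p = 0.000353) and 1.65 ± 0.18 (SE, adjusted p = 6.55e-06) in WAT on days 4 and 8. In BAT it was -0.38 ± 0.18 (SE, adjusted p = 0.0958) on day 4, which did not pass, and 1.0 ± 0.18 (SE, adjusted p = 0.000272) on day 8. From day 4 to day 8 of BAT controls it fell (log2 change -1.54 ± 0.18 SE, adjusted p = 9.16e-06). In WAT controls it was higher on day 8 by 0.53 ± 0.18 (SE, adjusted p = 0.0219), a call lost without WAT day 4 control replicate 1 or WAT day 8 control replicate 1 (log2 changes 0.17 to 0.42, adjusted p = 0.130 to 0.245).

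Wnt9a (chr11:59120430-59147054) rose with EGCG in BAT cells. Its FPKM was 1.42, 1.72 and 1.92 in BAT day 4 controls and 3.12, 3.17 and 2.54 with EGCG. By day 8 the controls had 1.66, 2.02 and 2.28 and the EGCG libraries 4.80, 5.64 and 4.34. The BAT groups did not overlap on either day. WAT controls had 2.25, 1.51 and 1.87 on day 4 and 2.31, 1.69 and 1.87 on day 8, and WAT EGCG libraries had 1.56, 1.52 and 1.37 and 2.40, 2.03 and 2.51. In WAT the groups overlapped on both days. The changes were 0.69 ± 0.14 (SE, adjusted p = 0.00141) and 1.13 ± 0.14 (SE, adjusted p = 1.32e-05) in BAT, and -0.17 ± 0.14 (SE, adjusted p = 0.328) and 0.11 ± 0.14 (SE, adjusted p = 0.529) in WAT. The difference between the depots passed on both days, at 0.86 ± 0.20 (SE, adjusted p = 0.00732) and 1.02 ± 0.20 (SE, adjusted p = 0.00162).

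The other tested ligands were lower in level. Wnt2 and Wnt10b entered the test through EGCG groups alone, so that their EGCG changes are given as values only. Wnt2 in BAT on day 8 was at 0.197 ± 0.198 FPKM in controls and 2.52 ± 0.0722 with EGCG (SD, n = 2). In WAT on day 8 it was at 0.506 ± 0.0283 and 2.14 ± 0.00504. Wnt10b, the canonical ligand most often studied in fat, was at 0.253 ± 0.231 FPKM in WAT day 8 control and 0.939 ± 0.212 with EGCG. In BAT on day 8 it was at 0.210 ± 0.0244 and 1.33 ± 0.0630. On day 4 it was below 0.2 FPKM in the mean of each group, with or without EGCG. Whether its EGCG effect changed with time was not tested. Wnt11 rose in BAT on both days, from 0.824 ± 0.147 to 1.88 ± 0.181 on day 4 (log2 change 0.66 ± 0.14 SE, adjusted p = 0.00192) and from 0.797 ± 0.0258 to 2.19 ± 0.190 on day 8 (log2 change 0.83 ± 0.14 SE, adjusted p = 0.000176). Exons of Wnt11 overlap Gm8398 on the other strand.

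Wnt4 in WAT on day 4 went from 0.908 ± 0.0497 to 3.56 ± 0.0612 FPKM with EGCG (log2 change 1.26 ± 0.15 SE, adjusted p = 2.56e-05), a 3.92-fold rise. Controls of BAT fell from 2.23 ± 0.643 on day 4 to 0.0658 ± 0.0351 on day 8 (log2 change -1.59 ± 0.15 SE, adjusted p = 1.54e-06). Wnt7b was not tested but differed in detection by depot. It had 58, 53 and 20 reads in WAT day 4 controls and 218, 129 and 96 with EGCG, in replicates 1, 2 and 3. In BAT it had 0, 1 and 0 reads in day 4 controls and 1, 2 and 4 with EGCG, 0 in all 3 day 8 controls and 8, 1 and 5 with EGCG on day 8. Exons of Wnt7b overlap AU022754 on the other strand. Of a list of 8 epithelial and mesothelial markers, 5 epithelial ones (Epcam, Krt5, Krt14, Krt8 and Krt18) were likewise higher in WAT on day 4, with means of 3.60 to 12.2 FPKM in controls and no read in replicates 1 and 2 of BAT controls. Upk3b had no read in either, and Msln and Wt1 were at 0.0736 and 0.0800 FPKM in WAT and 0.205 and 0.210 in BAT. The whole list had a summed FPKM of 31.5 to 39.5 in day 4 controls and 46.7 to 94.8 with EGCG, against 0.347 to 0.485 in BAT day 4 controls. The part of such cells in the Wnt7b and Wnt4 values of WAT was not tested.

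**Figure D2:**
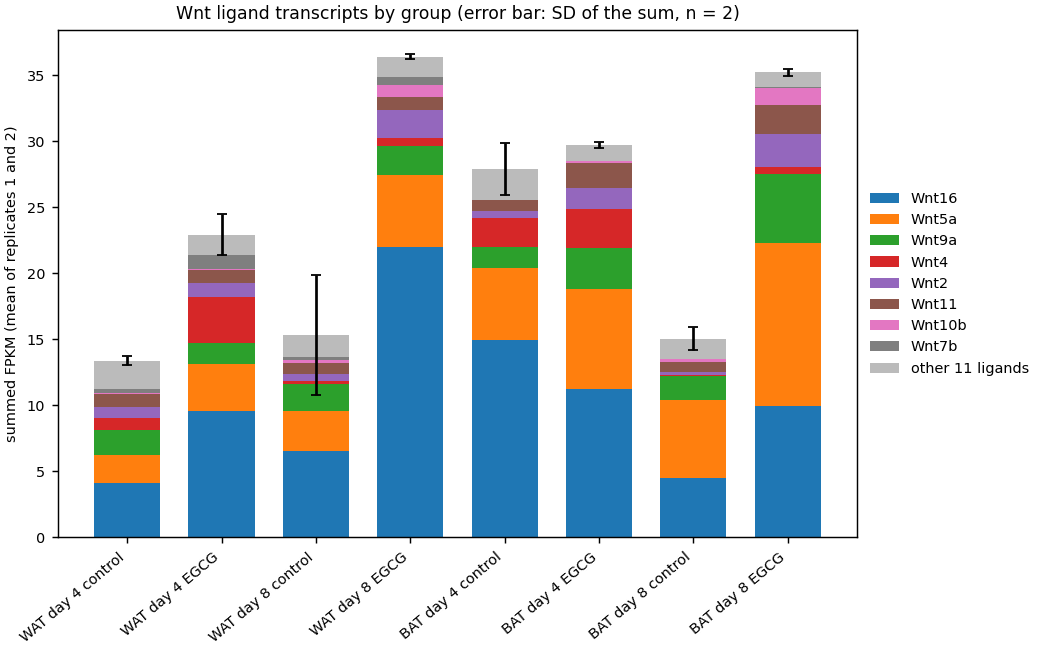
Stacked bars of the mean FPKM of replicates 1 and 2 for the 8 ligands with the highest group means and the sum of the other 11, for the 8 groups on the horizontal axis; the error bar is the SD of the ligand sum (n = 2). The sum was 15.0 in BAT day 8 control and 35.2 with EGCG, and Wnt16 was the leading ligand in every group but the 2 of BAT on day 8, where Wnt5a led.

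Among the receptors, Fzd4 stood out by falling with EGCG in both depots and on both days. Fzd4 (chr7:96552876-96558620) encodes a Frizzled that also serves as the receptor of the non-Wnt ligand norrin. Its FPKM in WAT was 57.4, 63.4 and 49.2 in day 4 controls and 17.0, 20.7 and 13.4 with EGCG. WAT libraries of day 8 had 37.6, 36.8 and 28.6 in controls and 15.7, 17.0 and 12.6 with EGCG. Every EGCG library of WAT was below every control library of its day. BAT cells of day 4 had 48.6, 49.9 and 37.9 in controls and 29.2, 31.7 and 22.6 with EGCG. On day 8 they had 63.4, 54.8 and 41.1 in controls and 19.9, 19.6 and 16.9 with EGCG. The BAT groups were apart as well on both days. The log2 changes were -1.63 ± 0.090 (SE, adjusted p = 6.10e-08), -1.14 ± 0.090 (SE, adjusted p = 5.52e-07), -0.68 ± 0.090 (SE, adjusted p = 6.71e-05) and -1.53 ± 0.090 (SE, adjusted p = 2.14e-08), in the order WAT day 4, WAT day 8, BAT day 4 and BAT day 8. The fall on day 4 was smaller in BAT than in WAT by 0.95 ± 0.13 (SE, adjusted p = 0.000262). From day 4 to day 8 of WAT controls, Fzd4 fell as well (log2 change -0.68 ± 0.090 SE, adjusted p = 4.03e-05).

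Axin2 and Tcf7l1, a transcription factor of the TCF family best known as a repressor, were the other genes lower in 4 of 4 EGCG contrasts, with smaller changes. Axin2 in WAT was at 3.94, 3.79 and 3.32 FPKM in day 4 controls and 2.91, 3.05 and 2.90 with EGCG, and at 2.16, 2.56 and 1.90 in day 8 controls and 1.54, 1.56 and 1.44 with EGCG. BAT values were 1.07, 0.872 and 1.17 in day 4 controls, 0.503, 0.695 and 0.699 with EGCG on day 4, 1.17, 1.04 and 1.17 in day 8 controls and 0.556, 0.457 and 0.449 with EGCG on day 8. All EGCG libraries were below the controls of the same depot and day. The log2 changes were -0.29 ± 0.093 (SE, adjusted p = 0.0207), -0.40 ± 0.093 (SE, adjusted p = 0.00284), -0.30 ± 0.093 (SE, adjusted p = 0.0187) and -0.48 ± 0.093 (SE, adjusted p = 0.000576) in the same order. The WAT day 4 call was lost with a pseudocount of 0.1 (-0.36, adjusted p = 0.0881) and without WAT day 4 control replicate 1, WAT day 4 control replicate 2 or WAT day 4 EGCG replicate 1 (log2 changes -0.31 to -0.26, adjusted p = 0.0553 to 0.0973). The BAT day 4 call was lost without BAT day 4 control replicate 1 or BAT day 4 EGCG replicate 1 (log2 changes -0.23 to -0.21, adjusted p = 0.131 to 0.150). Axin2 also differed by depot, its control level being lower in BAT (log2 change -1.31 ± 0.093 SE, adjusted p = 9.01e-07 on day 4 and -0.68 ± 0.093 SE, adjusted p = 8.54e-05 on day 8).

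Tcf7l1 fell in WAT on day 4 from 22.8 ± 1.40 to 14.7 ± 0.365 FPKM (SD, n = 2; log2 change -0.60 ± 0.10 SE, adjusted p = 0.000334). Its other 3 EGCG changes were -0.36, -0.32 and -0.25 on the log2 scale, in WAT day 8, BAT day 4 and BAT day 8, and each of these calls was lost when 1 library was left out. The WAT day 8 call was lost without WAT day 8 control replicate 2 or WAT day 8 EGCG replicate 2 (log2 changes -0.30 to -0.17, adjusted p = 0.0609 to 0.0756). The BAT day 4 call was lost without BAT day 4 control replicate 2, BAT day 4 EGCG replicate 1 or BAT day 4 EGCG replicate 2 (log2 changes -0.35 to -0.25, adjusted p = 0.0522 to 0.135). The BAT day 8 call was lost without BAT day 8 control replicate 1, BAT day 8 control replicate 2, BAT day 8 EGCG replicate 1 or BAT day 8 EGCG replicate 2 (log2 changes -0.26 to -0.23). It was also lost with no filter on low values (limma, adjusted p = 0.0881) and with the replicate number as a block (limma, adjusted p = 0.0528). Axin2 overlaps Gm11670 and Tcf7l1 overlaps Gm15401 in exons on the other strand.

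The promoters of the 3 genes called lower in all EGCG contrasts, and of Fzd1, are shown. Fzd1 was the receptor that fell most from day 4 to day 8 of controls on the log2(FPKM + 1) scale. TCF and LEF factors bind a short core whose letters can be looked for in these promoters. The sequences are those of RefSeq on GRCm38.p6, 250 bases before to 50 bases after the start site, 5′ to 3′ on the strand of the gene, with capitals marking CTTTGA or CTTTGT on either strand. The Fzd4 promoter (chr7:89404116-89404415, plus strand) and the Axin2 promoter (chr11:108920099-108920398, plus strand) held no match, the Tcf7l1 promoter (chr6:72788996-72789295, minus strand) held 1 and the Fzd1 promoter (chr5:4758167-4758466, minus strand) held 2.
Fzd4: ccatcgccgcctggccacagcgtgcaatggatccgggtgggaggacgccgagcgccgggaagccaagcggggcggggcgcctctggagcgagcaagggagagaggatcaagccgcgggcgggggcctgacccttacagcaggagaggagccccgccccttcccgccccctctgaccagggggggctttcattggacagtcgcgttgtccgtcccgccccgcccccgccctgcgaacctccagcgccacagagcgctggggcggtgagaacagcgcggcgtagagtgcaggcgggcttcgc
Axin2: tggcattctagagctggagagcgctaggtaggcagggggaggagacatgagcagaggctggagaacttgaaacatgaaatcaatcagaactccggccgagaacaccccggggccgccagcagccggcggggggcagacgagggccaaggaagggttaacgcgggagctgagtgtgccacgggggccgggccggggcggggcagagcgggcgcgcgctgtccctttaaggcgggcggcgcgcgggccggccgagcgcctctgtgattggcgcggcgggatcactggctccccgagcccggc
Tcf7l1: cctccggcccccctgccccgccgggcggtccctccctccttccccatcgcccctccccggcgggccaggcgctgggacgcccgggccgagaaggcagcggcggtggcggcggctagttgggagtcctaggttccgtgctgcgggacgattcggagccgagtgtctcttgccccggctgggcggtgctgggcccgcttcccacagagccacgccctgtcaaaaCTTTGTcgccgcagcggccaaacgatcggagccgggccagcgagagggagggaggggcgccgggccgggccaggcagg
Fzd1: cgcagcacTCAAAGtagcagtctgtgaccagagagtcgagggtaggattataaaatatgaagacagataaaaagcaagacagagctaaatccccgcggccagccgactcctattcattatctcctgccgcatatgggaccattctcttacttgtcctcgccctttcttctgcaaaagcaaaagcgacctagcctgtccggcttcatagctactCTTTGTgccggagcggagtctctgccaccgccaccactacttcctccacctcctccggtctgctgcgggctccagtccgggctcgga
The match of Tcf7l1 began at base -28 from the start site and those of Fzd1 at bases -242 and -37. A promoter was given for 33 of the 47 genes (42 promoters), and 28.6% of these held a match, against 31.2% of the 32851 mouse promoters of the same length. A match is a description of the letters, not a bound site.

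Fzd1 (chr5:4753842-4758216) was the most abundant receptor in 7 of 8 groups. On the log2(FPKM + 1) scale it fell most between day 4 and day 8 of control differentiation. That scale understates the fall of low genes such as Fzd3, at 2.71 and 2.92 FPKM on day 4 and 1.25 and 0.899 on day 8 in replicates 1 and 2 of WAT controls. Fzd1 was at 99.0, 105 and 92.8 FPKM on day 4 and 46.3, 31.2 and 31.7 on day 8 in WAT controls. In BAT controls it was 117, 108 and 104 on day 4 and 26.9, 26.7 and 27.1 on day 8. The days did not overlap in either depot. The log2 change was -1.40 ± 0.13 (SE, adjusted p = 1.89e-06) in WAT and -2.03 ± 0.13 (SE, adjusted p = 4.77e-08) in BAT, a 4.21-fold fall. With EGCG it was 50.2, 48.6 and 46.6 in BAT on day 8, above the 3 controls (log2 change 0.86 ± 0.13 SE, adjusted p = 6.09e-05). On day 4 EGCG gave 131, 123 and 140 in WAT and 120, 123 and 112 in BAT, and neither change passed (log2 changes 0.31 ± 0.13 SE, adjusted p = 0.0534 and 0.11 ± 0.13 SE, adjusted p = 0.508). In WAT on day 8 it was 48.3, 49.1 and 45.0 with EGCG (log2 change 0.35 ± 0.13 SE, adjusted p = 0.0293), a call lost with no filter on low values, with median-ratio scaling, with quantile normalization and without WAT day 8 control replicate 2, WAT day 8 EGCG replicate 1 or WAT day 8 EGCG replicate 2 (log2 changes 0.071 to 0.36, adjusted p = 0.0819 to 0.317).

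Fzd5 (chr1:64777134-64784324) and Lrp6 (chr6:134396494-134516983) changed with time in both depots. Fzd5 was at 2.55, 2.79 and 2.82 FPKM in BAT day 4 controls and at 7.31, 6.64 and 5.92 on day 8, a rise of 1.12 ± 0.099 (SE, adjusted p = 1.01e-06). In WAT controls it went the other way, from 4.71, 4.46 and 3.80 to 3.54, 2.54 and 2.79 (log2 change -0.48 ± 0.099 SE, adjusted p = 0.00130, and -0.30 without WAT day 8 control replicate 2). Fzd5 in BAT controls was therefore below WAT on day 4 (-0.61 ± 0.099 SE, adjusted p = 0.000337) and above it on day 8 (0.99 ± 0.099 SE, adjusted p = 6.61e-06). With EGCG it was 4.07, 3.96 and 3.77 in WAT day 4, 3.01, 2.90 and 2.69 in WAT day 8, 3.73, 3.40 and 3.07 in BAT day 4 and 6.88, 6.87 and 6.51 in BAT day 8. The BAT day 4 change alone passed (0.32 ± 0.099 SE, adjusted p = 0.0204), and it was lost with quantile normalization and without BAT day 4 control replicate 1 or BAT day 4 EGCG replicate 1 (log2 changes 0.26 to 0.27, adjusted p = 0.111 to 0.122).

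Lrp6, the co-receptor of canonical signalling, fell in controls from 36.4, 39.1 and 31.6 to 26.9, 21.7 and 18.3 FPKM in WAT (log2 change -0.62 ± 0.089 SE, adjusted p = 8.04e-05). The fall in controls of BAT was from 48.0, 44.7 and 40.1 to 22.6, 21.1 and 18.1 (log2 change -1.05 ± 0.089 SE, adjusted p = 7.12e-07). Day 8 libraries were below all day 4 libraries in both depots. With EGCG Lrp6 was 33.4, 37.7 and 30.3 in WAT day 4, 20.3, 20.7 and 17.4 in WAT day 8, 33.2, 35.9 and 30.5 in BAT day 4 and 18.4, 17.9 and 15.5 in BAT day 8. The fall in BAT on day 4 (-0.41 ± 0.089 SE, adjusted p = 0.00231) kept its call in every alternative tried. The falls on day 8 were -0.23 in WAT and -0.26 in BAT. The WAT call was lost without WAT day 8 control replicate 1, WAT day 8 EGCG replicate 1 or WAT day 8 EGCG replicate 2 (log2 changes -0.24 to -0.077). It was also lost with no filter on low values (limma, adjusted p = 0.0906) and with the replicate number as a block (limma, adjusted p = 0.0540). The BAT call was lost without BAT day 8 control replicate 1, BAT day 8 EGCG replicate 1 or BAT day 8 EGCG replicate 2 (log2 changes -0.28 to -0.21). Lrp5, the paralogous co-receptor, rose with EGCG in WAT on day 4 from 29.4 ± 0.989 to 37.3 ± 0.237 (SD, n = 2; log2 change 0.33 ± 0.057 SE, adjusted p = 0.000426) and fell in BAT on day 8 from 31.8 ± 2.08 to 16.8 ± 0.183 (log2 change -0.88 ± 0.057 SE, adjusted p = 4.71e-08).

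Of the other Frizzled genes, Fzd2, Fzd3, Fzd6 and Fzd7 were higher with EGCG in BAT on day 8, by 0.62 ± 0.097 (SE, adjusted p = 0.000105), 0.74 ± 0.11 (SE, adjusted p = 5.40e-05), 0.60 ± 0.10 (SE, adjusted p = 0.000238) and 0.57 ± 0.051 (SE, adjusted p = 8.58e-07) on the log2 scale. In WAT on day 4, Fzd2 fell from 18.7 ± 0.379 to 11.4 ± 1.02 FPKM (SD, n = 2; log2 change -0.67 ± 0.097 SE, adjusted p = 0.000134) and Fzd7 from 12.3 ± 0.359 to 8.76 ± 0.238 (log2 change -0.44 ± 0.051 SE, adjusted p = 2.29e-05). Both genes were higher with EGCG in WAT on day 8 (log2 changes 0.46 ± 0.097 SE, adjusted p = 0.00126 and 0.36 ± 0.051 SE, adjusted p = 7.81e-05). Without WAT day 8 control replicate 2 the Fzd2 change was 0.27. Fzd8, whose largest EGCG change was in BAT on day 4 (0.42 ± 0.10 SE, adjusted p = 0.00467), was at 5.38 to 10.5 FPKM in the group means.

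**Figure D3:**
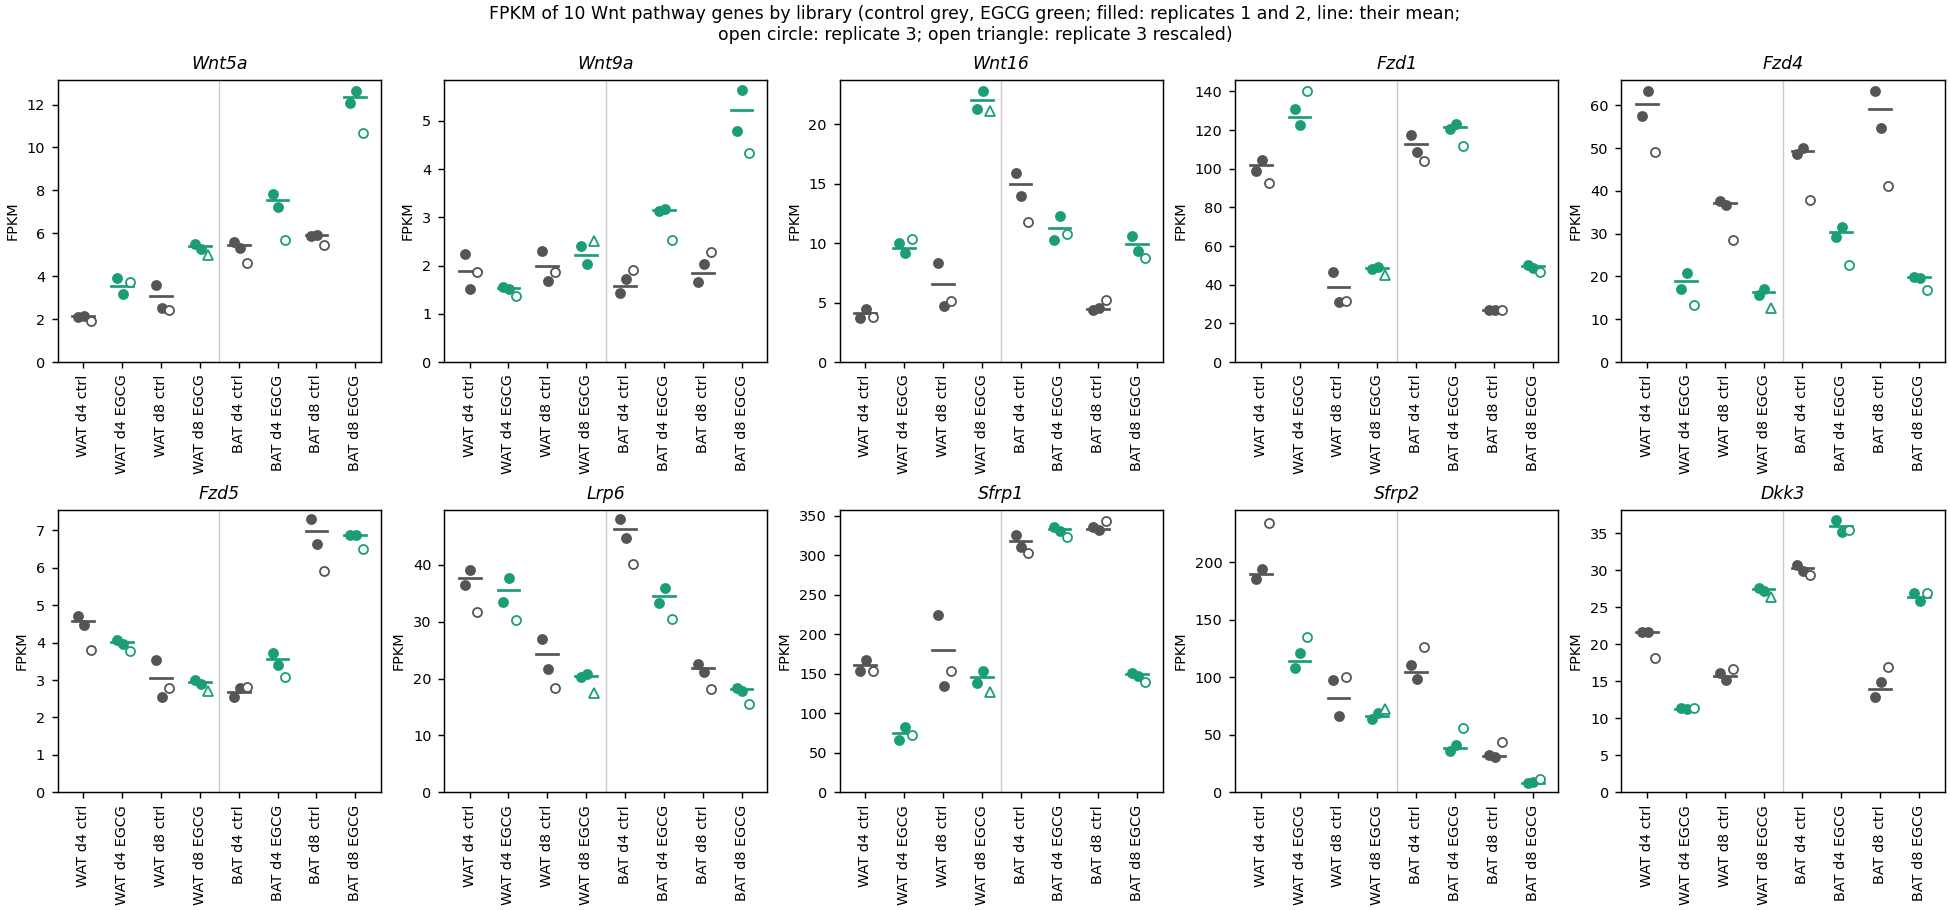
FPKM (vertical axes, linear from 0) of the 10 genes given in full, by group (horizontal axes); filled points are replicates 1 and 2, the line is their mean, open circles are replicate 3, and the open triangle is the rescaled replicate 3 of WAT day 8 EGCG. Fzd4 is lower in the EGCG libraries of every depot and day, Wnt5a is higher, and Fzd1 drops from day 4 to day 8 in both depots.

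The secreted antagonists were dominated by Sfrp1 and Sfrp2, and both fell with EGCG, though not in the same groups. Sfrp1 (chr8:24521974-24560104) in WAT was at 154, 168 and 154 FPKM in day 4 controls and 66.0, 82.9 and 71.9 with EGCG. WAT libraries of day 8 had 225, 135 and 153 in controls and 138, 154 and 127 with EGCG. The WAT groups were apart on day 4 and overlapped on day 8. BAT cells had 326, 311 and 303 in day 4 controls, 336, 331 and 323 with EGCG on day 4, 335, 332 and 343 in day 8 controls and 151, 147 and 140 with EGCG on day 8. In BAT the groups overlapped on day 4 and were apart on day 8, the reverse of WAT. The log2 changes were -1.11 ± 0.18 (SE, adjusted p = 0.000260) in WAT day 4, -0.25 ± 0.18 (SE, adjusted p = 0.234) in WAT day 8, 0.066 ± 0.18 (SE, adjusted p = 0.791) in BAT day 4 and -1.16 ± 0.18 (SE, adjusted p = 8.40e-05) in BAT day 8. The depots differed in this response on day 4 by 1.17 ± 0.25 (SE, adjusted p = 0.00506) and on day 8 by -0.90 ± 0.25 (SE, adjusted p = 0.0134), BAT minus WAT. In controls Sfrp1 was higher in BAT than in WAT, by 0.98 ± 0.18 (SE, adjusted p = 0.000644) on day 4 and 0.93 ± 0.18 (SE, adjusted p = 0.000851) on day 8. Without WAT day 8 control replicate 2 the difference in response on day 8 was -0.54 and that between the controls on day 8 was 0.57, and both kept their calls.

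Sfrp2 (chr3:83570243-83578238) fell with time in both depots, fell with EGCG in 3 of 4 contrasts and was lower in BAT. Its FPKM in WAT was 185, 194 and 234 in day 4 controls and 108, 121 and 135 with EGCG. By day 8 WAT libraries had 97.6, 65.9 and 99.8 in controls and 64.0, 68.5 and 72.4 with EGCG, and these groups overlapped. BAT libraries had 110, 98.4 and 126 in day 4 controls and 36.1, 40.8 and 55.8 with EGCG. By day 8 they had 32.1, 30.5 and 43.8 in controls and 8.02, 8.82 and 11.2 with EGCG. The BAT day 8 EGCG libraries held the lowest values of the series. EGCG changes were -0.73 ± 0.14 (SE, adjusted p = 0.00104) in WAT day 4, -0.27 ± 0.14 (SE, adjusted p = 0.11) in WAT day 8, which did not pass, -1.42 ± 0.14 (SE, adjusted p = 6.34e-06) in BAT day 4 and -1.78 ± 0.14 (SE, adjusted p = 2.78e-07) in BAT day 8. On day 8 the depots differed, the change in BAT minus that in WAT being -1.51 ± 0.20 (SE, adjusted p = 0.000134). From day 4 to day 8 of controls it changed by -1.23 ± 0.14 (SE, adjusted p = 1.33e-05) in WAT and -1.70 ± 0.14 (SE, adjusted p = 5.59e-07) in BAT. BAT controls were below WAT controls (log2 change -0.86 ± 0.14 SE, adjusted p = 0.000350 on day 4 and -1.33 ± 0.14 SE, adjusted p = 1.03e-05 on day 8). Exons of Sfrp2 overlap Gm16790 on the other strand.

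Dkk3 (chr7:119259533-119302571), a divergent member of the Dickkopf family, changed with EGCG in opposite directions. In WAT it was at 21.7, 21.7 and 18.2 FPKM in day 4 controls and 11.4, 11.2 and 11.4 with EGCG, a fall. By day 8 WAT controls had 16.2, 15.1 and 16.7 and EGCG libraries 27.6, 27.3 and 26.4, a rise. BAT cells had 30.7, 29.9 and 29.4 in day 4 controls, 36.9, 35.2 and 35.4 with EGCG on day 4, 12.9, 14.9 and 16.9 in day 8 controls and 26.9, 25.8 and 26.9 with EGCG on day 8. The EGCG libraries were apart from the controls in all 4 comparisons, below them in WAT on day 4 and above them in the others. The log2 changes were -0.88 ± 0.059 (SE, adjusted p = 2.61e-07), 0.77 ± 0.059 (SE, adjusted p = 4.11e-07), 0.24 ± 0.059 (SE, adjusted p = 0.00482) and 0.88 ± 0.059 (SE, adjusted p = 6.49e-08), in the order WAT day 4, WAT day 8, BAT day 4 and BAT day 8. On day 4 the depots differed by 1.13 ± 0.083 (SE, adjusted p = 4.03e-06). From day 4 to day 8 Dkk3 fell in controls (log2 change -0.45 ± 0.059 SE, adjusted p = 3.95e-05 in WAT and -1.07 ± 0.059 SE, adjusted p = 1.75e-08 in BAT).

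Frzb, also a secreted frizzled-related protein, was called higher with EGCG in 3 contrasts and lower in 0. It rose with EGCG in BAT on day 4 from 1.38 ± 0.146 to 4.13 ± 0.234 FPKM (SD, n = 2; log2 change 1.11 ± 0.094 SE, adjusted p = 1.72e-06) and in WAT on day 8 from 0.520 ± 0.0415 to 1.55 ± 0.0447 (log2 change 0.74 ± 0.094 SE, adjusted p = 2.59e-05). Sfrp5 and Dkk2 entered the test through WAT groups alone, so that their depot values are a description with no test. Sfrp5 in day 4 controls was at 2.07 ± 1.03 FPKM in WAT and 0.197 ± 0.185 in BAT, the same direction as the 5 epithelial markers given with Wnt7b, and their part in it was not tested. Dkk2 in day 8 controls was at 1.80 ± 0.419 in WAT and 0.138 ± 0.00174 in BAT. Sfrp4 replicates were far apart in WAT day 8 controls, at 7.25, 2.01 and 2.40 FPKM. Its EGCG change there (-0.91 ± 0.35 SE, adjusted p = 0.0376) was lost without WAT day 8 control replicate 1, WAT day 8 EGCG replicate 1 or WAT day 8 EGCG replicate 2 (log2 changes -0.97 to -0.18, adjusted p = 0.0843 to 0.481).

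Of the nuclear genes, Ctnnb1 (beta-catenin) was called higher with EGCG in 3 of 4 contrasts. Ctnnb1 was at 115, 110 and 121 FPKM in WAT day 8 controls and 188, 186 and 195 with EGCG. BAT day 8 values were 108, 113 and 110 in controls and 192, 190 and 193 with EGCG. The groups did not overlap, and the log2 changes were 0.73 ± 0.042 (SE, adjusted p = 4.08e-08) in WAT and 0.79 ± 0.042 (SE, adjusted p = 8.47e-09) in BAT. On day 4 they were 0.25 ± 0.042 (SE, adjusted p = 0.000339) in WAT and 0.085 ± 0.042 (SE, adjusted p = 0.113) in BAT, and the latter did not pass. From day 4 to day 8 it fell in controls (log2 change -0.42 ± 0.042 SE, adjusted p = 3.75e-06 in WAT and -0.59 ± 0.042 SE, adjusted p = 1.39e-07 in BAT). Its exons overlap Ulk4 on the other strand. Tcf7l2 had EGCG changes of -0.37 (adjusted p = 0.000251), -0.20, -0.20 and 0.080 on the log2 scale, of which the last did not pass. Its WAT day 8 call was lost without WAT day 8 control replicate 1 or WAT day 8 EGCG replicate 1 (log2 changes -0.19 to -0.15, adjusted p = 0.0557 to 0.0832) and its BAT day 4 call without BAT day 4 control replicate 1 or BAT day 4 EGCG replicate 2 (log2 changes -0.17 to -0.15, adjusted p = 0.0932 to 0.121). Tcf7, which was not tested, was at 0.123 FPKM in BAT day 4 control and 0.656 with EGCG, and Lef1 stayed under 0.4 FPKM in the mean of every group.

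The second question was how these genes changed between day 4 and day 8 of control differentiation. In WAT 4 of the 28 tested genes were higher on day 8 and 14 lower, against 27.7% and 33.2% of all tested genes. In BAT 5 were higher and 11 lower, against 28.7% and 40.4%. In both depots fewer of the Wnt genes than of all genes were higher, also with median-ratio scaling, where 4 in WAT and 6 in BAT were higher against 4415 and 5207 of all 14095. Of the 10 tested receptors and co-receptors, 0 were higher and 7 lower in WAT, and 3 were higher and 4 lower in BAT. The 3 that were higher in BAT were Fzd4, Fzd5 and Lrp5. The Fzd4 call was lost without BAT day 4 control replicate 1, BAT day 4 control replicate 2 or BAT day 8 control replicate 1 (log2 changes 0.15 to 0.27, adjusted p = 0.0586 to 0.217). Fzd3, like Fzd1, fell in both depots (log2 change -0.88 ± 0.11 SE, adjusted p = 2.04e-05 in WAT and -1.07 ± 0.11 SE, adjusted p = 2.84e-06 in BAT). Of the 10 adipocyte markers, 6 in WAT and 8 in BAT were higher on day 8, and 1 in WAT and 0 in BAT were lower. Of 5 tested macrophage markers 5 and 1 were higher, of 6 endothelial markers 5 and 3, and of 4 pericyte and smooth muscle markers 3 and 3, in WAT and BAT, with none lower. Of 7 tested precursor and fibroblast markers, 4 and 3 were higher and 1 and 4 lower. The part of these markers in the Wnt gene changes was not tested.

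The third question was how control cells of the depots differed. On day 4, 9 of the 28 genes were higher in BAT and 10 lower, against 41.4% and 14.4% of all tested genes. With median-ratio scaling and with quantile normalization the split was 7 higher and 14 lower, where the calls of all genes were 3408 higher and 3324 lower with the former and 3641 and 3052 with the latter. Lrp6 (0.29 ± 0.089 SE, adjusted p = 0.0165) and Ctnnb1 (0.14 ± 0.042 SE, adjusted p = 0.0136) lost their calls under both, and the Ctnnb1 change turned to -0.031, adjusted p = 0.552 with median-ratio scaling. Without WAT day 4 control replicate 1 or BAT day 4 control replicate 1 (log2 change 0.24, adjusted p = 0.101 to 0.102) the Lrp6 call was lost as well, and the Ctnnb1 call was lost without WAT day 4 control replicate 1, WAT day 4 control replicate 2 or BAT day 4 control replicate 1 (log2 changes 0.12 to 0.14, adjusted p = 0.0520 to 0.0798). The day 4 calls of Fzd4, Dkk2 and Sfrp4 were lost with 1 library left out as well. On day 8, 7 were higher in BAT and 10 lower, against 31.6% and 22.0%. Of the lower ones, Wnt2 (log2 changes -0.32 to -0.17), Sfrp4 (-0.54) and Dkk3 (-0.12 to -0.064) lost their calls with 1 library left out. Dkk3 also lost its call with no filter on low values, and its replicate 3 was at 16.9 FPKM in BAT and 16.7 in WAT. Of the 10 adipocyte markers, 8 were higher in BAT on each day, with 1 lower on day 4. On days 4 and 8, 2 and 0 of 7 precursor and fibroblast markers were higher and 4 and 5 lower. Of 5 macrophage markers 4 and 0 were higher and 0 and 3 lower. Of 6 endothelial markers 1 and 0 were higher and 3 and 4 lower. Of 6 epithelial and mesothelial markers 0 and 1 were higher and 5 and 4 lower. Of 4 pericyte and smooth muscle markers 2 and 3 were higher and 2 and 0 lower. Their part was not tested. Wnt5a, Sfrp1 and Frzb were higher in BAT on both days, and Sfrp2, Axin2, Fzd2, Fzd6 and Tcf7l1 were lower on both. The day 4 call of Fzd6 was lost without WAT day 4 control replicate 1 or BAT day 4 control replicate 2 (log2 changes -0.31 to -0.28, adjusted p = 0.0760 to 0.0925), and the day 8 call of Tcf7l1 without WAT day 8 control replicate 2 (log2 change -0.18, adjusted p = 0.0617).

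The last question was whether EGCG acted differently in the depots, tested as the EGCG effect in BAT minus that in WAT. On day 4 the difference was above 0 for 10 of the 28 genes and below 0 for 4, against 12.0% and 16.1% of all tested genes. On day 8 it was above 0 for 7 and below 0 for 4, against 19.4% and 19.7%. The share above 0 on day 4 was larger than the background, also with median-ratio scaling (12 of 28, against 2262 of 14095), read as a description with no test. Among the 28, the largest difference on day 4 was that of Wnt16 (-1.44 ± 0.25 SE, adjusted p = 0.00152), which rose in WAT, and on day 8 that of Sfrp2, given above. Lrp5 differed on both days, by -0.46 ± 0.080 (SE, adjusted p = 0.00160) on day 4 and -0.71 ± 0.080 (SE, adjusted p = 4.43e-05) on day 8.

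**Figure D4:**
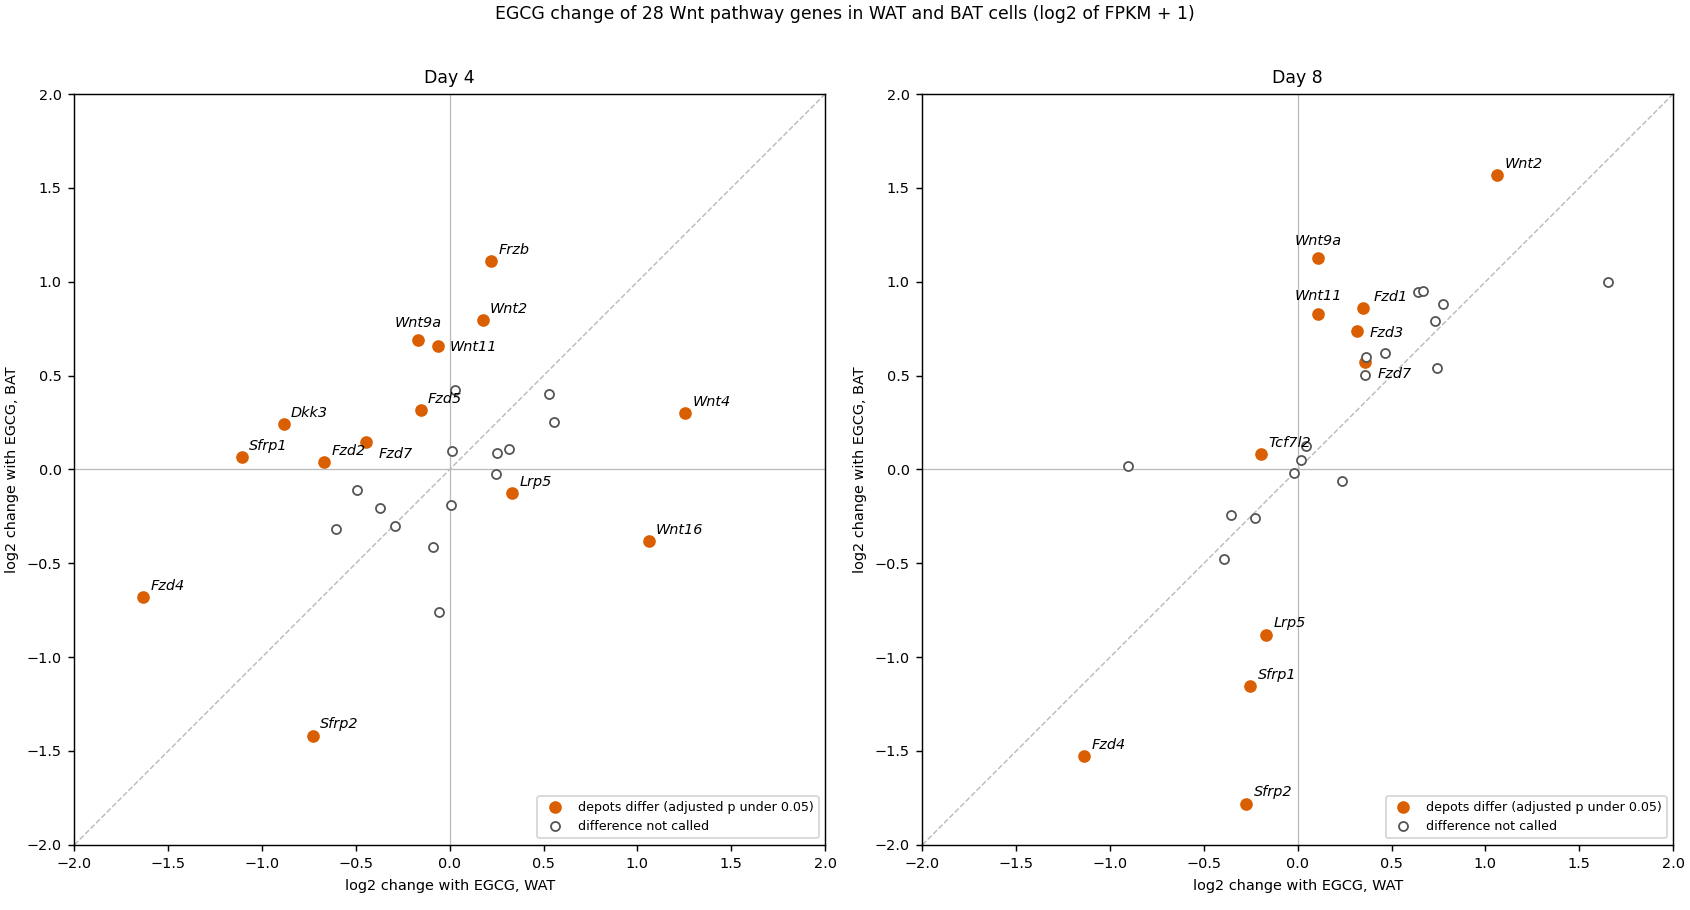
Log2 change with EGCG in WAT (horizontal axis) against that in BAT (vertical axis) for the 28 tested genes on day 4 and day 8; filled, named points are genes whose difference between depots had an adjusted p under 0.05 (limma), and the dashed line marks equal change. Sfrp1 lies to the left near 0 on the BAT axis on day 4 and below the line on day 8, and Wnt9a and Wnt11 lie above the line on both days.

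Around these genes, 50 other genes of the pathway formed a list, of which 42 were tested and are read against the background shares given for each contrast. With EGCG, 12 were higher and 9 lower in WAT on day 4, 25 and 11 in WAT on day 8, 16 and 9 in BAT on day 4, and 26 and 7 in BAT on day 8. Porcn, the enzyme that attaches the lipid to Wnt ligands, fell in all 4 contrasts. In BAT on day 8 it went from 10.2 ± 0.437 to 2.21 ± 0.185 FPKM (SD, n = 2; log2 change -1.80 ± 0.13 SE, adjusted p = 1.16e-07), and in WAT on day 4 from 19.3 ± 1.30 to 6.07 ± 0.416 (log2 change -1.52 ± 0.13 SE, adjusted p = 1.79e-06). Wls, which carries the ligands to the cell surface, rose in BAT on day 8 from 40.2 ± 0.315 to 146 ± 1.08 (log2 change 1.83 ± 0.086 SE, adjusted p = 3.28e-09). Both genes serve the secretion of the ligands, and in BAT on day 8 they changed in opposite directions. Rspo3, a secreted enhancer of Wnt signalling, rose in BAT on day 4 from 7.06 ± 0.538 to 14.1 ± 1.07 (log2 change 0.90 ± 0.12 SE, adjusted p = 5.28e-05), and Lgr4, a receptor of the R-spondins, fell in all 4 contrasts, with changes of -0.84, -0.49, -0.62 and -0.42 on the log2 scale.

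Among the other receptors and co-factors of the list, Apcdd1, a membrane inhibitor of Wnt signalling, fell with EGCG in all 4 contrasts, in BAT on day 8 from 21.9 ± 0.0795 to 3.01 ± 0.0357 FPKM (SD, n = 2; log2 change -2.52 ± 0.10 SE, adjusted p = 1.01e-09). Of the cytoplasmic genes, Nkd1, an inhibitor, fell in WAT on day 4 from 2.94 ± 0.198 to 1.31 ± 0.160 (log2 change -0.77 ± 0.11 SE, adjusted p = 0.000134), while its paralog Nkd2 rose in all 4 contrasts, in BAT on day 8 from 7.16 ± 0.492 to 23.5 ± 0.454 (log2 change 1.59 ± 0.087 SE, adjusted p = 1.14e-08). Of the 6 genes listed as transcribed in response to beta-catenin, 5 were tested and Sp5 was not. With EGCG 2, 2, 3 and 2 of them were higher and 2, 2, 1 and 1 lower, in the order WAT day 4, WAT day 8, BAT day 4 and BAT day 8. Axin2, Lgr5, Nkd1, Notum, Znrf3, Rnf43 and Apcdd1 are described in the same way but stand in other lists. These counts therefore leave them out. Among those left out, Axin2 and Apcdd1 were lower in all 4 contrasts, while Notum was higher in BAT on day 4. Ccnd1, which encodes cyclin D1 and answers to many growth signals, rose in all 4 contrasts, in BAT on day 8 from 17.9 ± 1.08 to 68.7 ± 2.01 (log2 change 1.88 ± 0.068 SE, adjusted p = 4.19e-10). Wisp1 rose in BAT on day 8 from 11.6 ± 1.29 to 69.3 ± 1.74 (log2 change 2.48 ± 0.15 SE, adjusted p = 2.10e-08) and fell in WAT on day 4 from 12.1 ± 1.19 to 7.37 ± 0.503 (log2 change -0.64 ± 0.15 SE, adjusted p = 0.00289). Myc was higher in WAT on day 4 alone (0.35 ± 0.11 SE, adjusted p = 0.0163). Calls of the listed pathway genes were not checked with other settings or with libraries left out. Twist1, a transcription factor of mesenchymal cells, fell by the test in 3 contrasts, with changes of -0.76, -0.30, -0.37 and -0.066 on the log2 scale, of which the last did not pass. Wisp2 rose from 2.76 ± 0.0264 on day 4 to 93.9 ± 19.2 on day 8 of WAT controls (log2 change 4.64 ± 0.14 SE, adjusted p = 6.81e-10), the largest change with time among the pathway genes listed.

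**Figure D5:**
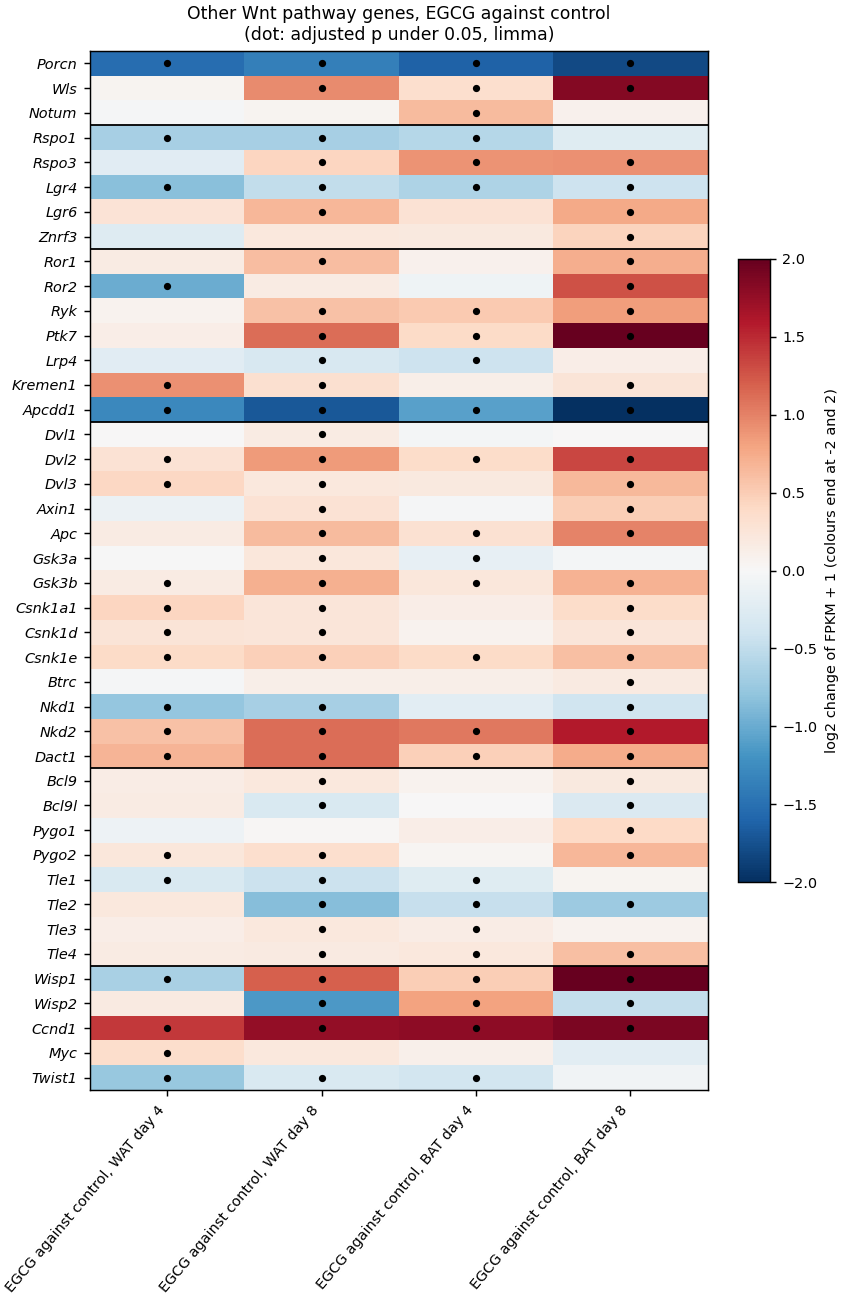
Heat map of the log2 change of FPKM + 1 with EGCG for the 42 other pathway genes tested (vertical axis, in blocks of secretion, R-spondins and their receptors, other receptors, cytoplasm, nucleus and genes described as transcribed in response to beta-catenin) in the 4 EGCG contrasts (horizontal axis); a dot marks an adjusted p under 0.05 (limma). Porcn, Lgr4 and Apcdd1 are lower and Nkd2 and Ccnd1 higher in all 4 columns.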

How the data were processed

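The authors deposited FPKM values per gene in 2 tables, replicates 1 and 2 of all groups in the first and replicate 3 in the second. The submitters' processing notes name FastQC 0.11.9, HISAT2 2.2.0, HTSeq 0.11 and mm9, with no role or order, and the strand setting is not given in the sources used here. All gene lengths equalled the longest transcript of GENCODE vM1. Every value came out as a whole number of reads within 0.01, from which library depths and read counts were recovered. Values were transformed to log2(FPKM + 1), so that changes of low genes are understated, and 14095 genes at 1 FPKM or more in at least 2 of 16 libraries were fitted with limma 3.58.1 in R 4.3.3 on the 8 groups of replicates 1 and 2 (8 residual degrees of freedom). P-values were adjusted by Benjamini-Hochberg over all tested genes, with a threshold of 0.05, in 10 contrasts. Replicate 3 entered no test because its table was scaled separately. Tables and plots were made with Python 3.11.15, pandas 2.3.3 and matplotlib 3.10.9. On simulated reads for the WAT day 4 comparison of EGCG with control, limma with the same design recovered 97.4% of 191 changed genes. It also called 13 of 12943 unchanged genes. The simulated log2 changes were all at least 1 in size, few genes changed, and all genes shared 1 dispersion (0.00242). The data differ in each of these points, so that the simulation does not give the error rate of the calls made here.

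The genes and the pathway and marker lists were chosen with earlier results of these data known. All genes of the rule may be named, and values in every library are given for the 10 that reached a group mean of 5 FPKM with a called log2 change of at least 1. Axin2 is given in every library, and Sfrp4, Ctnnb1, Wnt7b, Fzd3 and Fzd6 in libraries of some groups, a choice made after their values were seen. The alternatives were a pseudocount of 0.1, no filter on low values, median-ratio scaling, quantile normalization, the replicate number as a block, limma's voom on the recovered reads, and leaving out each library in turn.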

Additional observations from a re-analysis of the deposited data

Results flagged for a closer look

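For 17 of the 28 tested genes the change with EGCG differed between BAT and WAT on at least 1 day by the interaction term of the limma fit (adjusted p under 0.05), each value being the log2 change in BAT minus that in WAT. Of all tested genes, 12.0% were above 0 and 16.1% below on day 4, and 19.4% and 19.7% on day 8. The share of all genes called on at least 1 day was not counted. Wnt2 entered the test through EGCG groups alone, so that its differences are a description. On day 4 the ligands Wnt2 (0.62), Wnt9a (0.86) and Wnt11 (0.72) had the higher change in BAT, and Wnt4 (-0.96) and Wnt16 (-1.44) the higher change in WAT. Among receptors on day 4 the differences were 0.71 for Fzd2, 0.95 for Fzd4, 0.47 for Fzd5, 0.59 for Fzd7 and -0.46 for Lrp5. Among antagonists on day 4 they were 1.17 for Sfrp1, -0.69 for Sfrp2, 0.89 for Frzb and 1.13 for Dkk3. Those of Wnt11, Fzd5 and Sfrp2 were lost with a single library left out: Wnt11 without WAT day 4 control replicate 1, WAT day 4 EGCG replicate 2, BAT day 4 control replicate 1 or BAT day 4 EGCG replicate 1 (log2 changes 0.53 to 0.66, adjusted p = 0.0613 to 0.0691), Fzd5 without any of the 8 day 4 libraries but BAT day 4 control replicate 2 and BAT day 4 EGCG replicate 2 (log2 changes 0.42 to 0.50, adjusted p = 0.0506 to 0.0921), and Sfrp2 without WAT day 4 control replicate 1, WAT day 4 EGCG replicate 2, BAT day 4 control replicate 1 or BAT day 4 EGCG replicate 1 (log2 changes -0.66 to -0.60, adjusted p = 0.0673 to 0.0842). The Wnt2 call was lost with a pseudocount of 0.1 (1.17, adjusted p = 0.105), and those of Fzd5 and Sfrp2 with no filter on low values.

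On day 8 the differences were 0.51 for Wnt2, 1.02 for Wnt9a and 0.72 for Wnt11 among ligands. Receptors differed by 0.51 for Fzd1, 0.42 for Fzd3, -0.39 for Fzd4, 0.22 for Fzd7 and -0.71 for Lrp5. The others were -0.90 for Sfrp1, -1.51 for Sfrp2 and 0.28 for Tcf7l2. With 1 library left out, the Wnt2 call was lost without any of the 8 day 8 libraries but WAT day 8 control replicate 2 and BAT day 8 control replicate 2 (log2 changes 0.34 to 0.53, adjusted p = 0.0515 to 0.0838), that of Fzd1 without any of the 8 day 8 libraries but WAT day 8 control replicate 1 and WAT day 8 control replicate 2 (log2 changes 0.49 to 0.53, adjusted p = 0.0761 to 0.101) and that of Fzd3 without any of the 8 day 8 libraries but WAT day 8 control replicate 2 (log2 changes 0.30 to 0.48, adjusted p = 0.0573 to 0.151). The Fzd4 call was lost without any of the 8 day 8 libraries but WAT day 8 EGCG replicate 1 and BAT day 8 control replicate 2 (log2 changes -0.41 to -0.29, adjusted p = 0.0502 to 0.117), that of Fzd7 without WAT day 8 control replicate 2, WAT day 8 EGCG replicate 1, BAT day 8 control replicate 2 or BAT day 8 EGCG replicate 2 (log2 changes 0.18 to 0.20, adjusted p = 0.0697 to 0.126) and that of Tcf7l2 without any of the 8 day 8 libraries but WAT day 8 control replicate 2, WAT day 8 EGCG replicate 2 and BAT day 8 control replicate 1 (log2 changes 0.23 to 0.28, adjusted p = 0.0507 to 0.0787). The Sfrp1 difference was -0.54 without WAT day 8 control replicate 2 and kept its call. With no filter on low values the calls of Fzd1, Fzd3 and Fzd4 were lost, with quantile normalization those of Wnt2, Fzd3, Fzd4 and Tcf7l2, and with the replicate block that of Fzd3. Replicate 3 went the opposite way for Tcf7l2 and the same way for the other 10 genes. The sign was the opposite on days 4 and 8 for Fzd4 and Sfrp1, and the change of the depot difference with time was not tested.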

How the results depend on the processing

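Of 167 calls of Wnt genes over the 10 contrasts, 143 kept their direction and call in the 6 alternatives besides leaving out a library, and 123 with each library left out in turn. A pseudocount of 0.1 lost 2 of these calls, no filter 14, median-ratio scaling 6, quantile normalization 10, the replicate block 3 and voom 0. Ctnnb1, higher in BAT than WAT on day 4 of controls, turned in direction to -0.031, adjusted p = 0.552 with median-ratio scaling, which moved the median change of all genes in that contrast from 0.15 to 0.01. The counts of called Wnt genes stayed within 1.5 times in each of these alternatives. With single libraries left out, the count for EGCG in WAT on day 8 was 12 to 18, lowest without WAT day 8 EGCG replicate 1, and that for the depot difference of the EGCG effect on day 8 was 5 to 13, lowest without BAT day 8 EGCG replicate 2 (6 without WAT day 8 EGCG replicate 1 or BAT day 8 EGCG replicate 1, 7 without WAT day 8 EGCG replicate 2 or BAT day 8 control replicate 1). Deviations of same-numbered libraries correlated at -0.070 to 0.081, and the labels do not say whether such libraries belong together. With the replicate block the counts were 17, 19, 15, 21, 18, 16, 19, 17, 14 and 10, against 16, 19, 15, 22, 18, 16, 19, 17, 14 and 11 with no block (EGCG in WAT day 4, WAT day 8, BAT day 4 and BAT day 8, then day 8 against day 4 in WAT and BAT, BAT against WAT on days 4 and 8, and the depot difference on days 4 and 8). At these depths 3 reads on a gene of 2 kb stand for 0.0284 to 0.0380 FPKM in replicates 1 and 2, and with 2 libraries a group a change that missed the threshold is not shown to be absent.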

Other observations

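Of the 10 other receptors and co-factors listed, 7 were tested, and with EGCG 1, 4, 2 and 5 were higher and 2, 2, 2 and 1 lower in WAT day 4, WAT day 8, BAT day 4 and BAT day 8. Ptk7 and Ror2 are named here after their values were seen. Ptk7, a catalytically inactive receptor kinase that binds Wnt pathway proteins, rose in BAT on day 8 from 7.32 ± 0.181 to 32.2 ± 0.340 FPKM (SD, n = 2; log2 change 2.00 ± 0.10 SE, adjusted p = 6.35e-09) and in WAT on day 8 from 13.6 ± 3.02 to 30.6 ± 0.231 (log2 change 1.12 ± 0.10 SE, adjusted p = 1.69e-06). Ror2, a receptor of Wnt5a, rose in BAT on day 8 from 3.06 ± 0.194 to 8.82 ± 0.10 (log2 change 1.28 ± 0.11 SE, adjusted p = 5.26e-07) and fell in WAT on day 4 from 14.4 ± 0.258 to 6.76 ± 0.527 (log2 change -1.0 ± 0.11 SE, adjusted p = 1.41e-05). Among genes below the filter, Tcf7 had mean FPKM of 0.158, 0.456, 0.123 and 0.428 in controls of WAT day 4, WAT day 8, BAT day 4 and BAT day 8, and 0.476, 0.683, 0.656 and 0.945 with EGCG, in the same order. Wnt5b was highest in BAT day 4 control, at 1.08 ± 0.156 (SD, n = 2), and its mean was 0.559 with EGCG. Tcf7 and Wnt5b were not tested.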
